A study of Gallus gallus with 6 samples.

Results

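The genes described here were grouped as secreted antagonists and modulators of bone morphogenetic protein (BMP) signalling: FST, CHRD, NOG, FSTL1, FSTL4, BMPER, GREM1, TWSG1, CHRDL1 and SMOC1. They were chosen by name, as every probe set of the array whose single annotated gene symbol is one of these 10. That gave 21 probe sets of 37690, for 10 genes of 13008 with a symbol. The controls were area opaca, the extraembryonic rim of the chick blastoderm, and the induced samples were area opaca epiblast that had lain for 12 hours under grafted lateral head mesoderm. Donors of the mesoderm were at stage HH6 and hosts at stage HH4-. The graft was taken off before the epiblast was collected, and the control came from the opposite side. The comparison addresses the transcripts that change when sensory placode progenitors are induced by this mesoderm. There were 3 control and 3 induced samples, numbered as biological repeats, with 1 Affymetrix array each. The sources used here do not give strain, sex, the number of embryos in a sample or whether equal numbers share hosts. The p-values therefore rest on the spread among these 6 samples, part of which may be technical.

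BMPs are secreted ligands that signal through paired type I and type II receptors and SMAD transcription factors. Antagonists such as noggin, chordin and follistatin bind the ligands outside the cell and keep them from their receptors. In the early vertebrate ectoderm, BMP activity favours epidermal fates, and a reduction of BMP signalling next to the neural plate is one of the conditions under which the preplacodal region forms.

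Values are in 2 forms, the deposited signal in units and log2(signal + 16) after quantile normalization, which gives all arrays the same distribution. Both arrays of repeat 1 were brighter, with medians of 17.7 and 18.35 units against 7.5 to 9.6 for the other 4. Deposited signals of repeat 1 therefore compare poorly with those of the other repeats. Brightness also differed within repeat 3, with medians of 9.6 units in the control and 7.5 units in the induced sample. Probe sets with a mean over all 6 arrays below 4.50 on the log2 scale, the 40th percentile, were left out of the main test, which kept 22614. Of 10 genes listed for epiblast and non-neural ectoderm 7 were tested, and 6 of these had a higher mean in the induced samples (median log2 fold change 0.20, 0 passed). GATA2, also listed, read at most 7.7 units and was not tested, and TP63 read at most 32.8 units. CDH1 and EPCAM, which encode cell adhesion proteins, had means of 10.84 and 11.44 in the controls and differed by 0.01 and 0.06, while GATA3, TFAP2A, TFAP2C, DLX5 and TP63 differed by 0.89, 0.48, 0.27, 0.20 and -0.11. The number of arrays limits the precision, and in whole tissue fewer cells of a type and less RNA per cell cannot be told apart.

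None of the 10 genes passed the test over all probe sets, a limma adjusted p under 0.05, which 0.0973% of the probe sets did (22 of 22614). FSTL4 and FST had the largest differences, both towards the induced epiblast, and the FST probe set with the highest mean was under 16 units on 4 of 6 arrays. BMPER, CHRD, CHRDL1, FSTL1 and TWSG1 had 95% intervals of the difference, not adjusted for the number of tests, that include 0, and CHRD and CHRDL1 were under 16 units on 5 of 6 arrays. NOG, GREM1 and SMOC1 stayed under 16 units on every array. Of the 21 probe sets, 9 were above the filter on signal, for 7 genes, and all 12 below it read under 16 units on all 6 arrays. Among the 9, the lowest adjusted p was 0.188 and 3 had an unadjusted p under 0.05, all higher in the induced samples, where the background is 4.74%. After normalization the groups did not overlap in the same 3 probe sets, all with the induced samples above. The background in that direction was 7.74%. Of these 3, 2 measure FSTL4, so they are not independent. The filter uses the mean over both groups and so can favour probe sets that are high in 1 of them. Over all 21 without the filter, 11 had a higher mean in the induced samples (52.4%, against 51.4% of all 37690), and the median log2 fold change was 0.07 against 0.01. In that fit too none of the 21 passed by limma (lowest adjusted p = 0.298, with 3 at an unadjusted p under 0.05).

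Of the follistatin family, FSTL4 and FST are described before FSTL1. FSTL4 encodes a secreted protein with a follistatin-like domain, and these data do not show whether it acts on BMPs. Its probe set with the highest mean, called FSTL4 a, read 89.9, 18.9 and 28.1 units in the controls of repeats 1 to 3. The induced samples of repeats 1 to 3 read 246.2, 132.2 and 40.3 units. In each repeat the induced sample was higher, by 2.74, 6.99 and 1.43 times. The deposited signals of the groups overlapped, because the bright control array of repeat 1 lay above induced sample 3. After normalization the controls lay at 6.13, 5.44 and 5.57 and the induced samples at 7.28, 7.43 and 6.32, without overlap, and induced sample 3 was nearest to the controls. Mean levels were 5.71 ± 0.37 and 7.01 ± 0.60 (SD, n = 3 each). They differed by 1.30 on the log2 scale (SE 0.31, 95% interval 0.61 to 1.99, limma adjusted p = 0.188). Without induced sample 3 the difference was 1.68 and passed (limma adjusted p = 0.0362, and 0.136 to 0.751 when any other array was left out). In that setting 110 probe sets of the whole array passed (0.486%, against 0.0973% with every sample kept). The added constant set the size of the FSTL4 a difference, with 0.83 for a constant of 64.

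A further FSTL4 probe set, FSTL4 b, read 49, 13.7 and 25.4 units in the controls and 101.9, 55.3 and 20.1 units in the induced samples. The deposited signals of the groups overlapped, and in repeat 3 the induced sample read below the control, at 20.1 against 25.4 units. The order of the samples after normalization was similar to that of FSTL4 a, with induced sample 3 at 5.58 just above the highest control at 5.52. Its log2 fold change was 0.67 (SE 0.24, limma adjusted p = 0.38). The remaining FSTL4 probe sets read at most 15.4 and 9.1 units, and lay below the filter, with differences of -0.30 and -0.18 (limma adjusted p = 0.682 and 0.882 with the filter dropped). FSTL4 a and b thus had higher means in the induced samples but differed in size, at 1.30 and 0.67. The remaining probe sets were under 16 units on all 6 arrays, too weak to decide whether they share that direction.

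**Figure D1:**
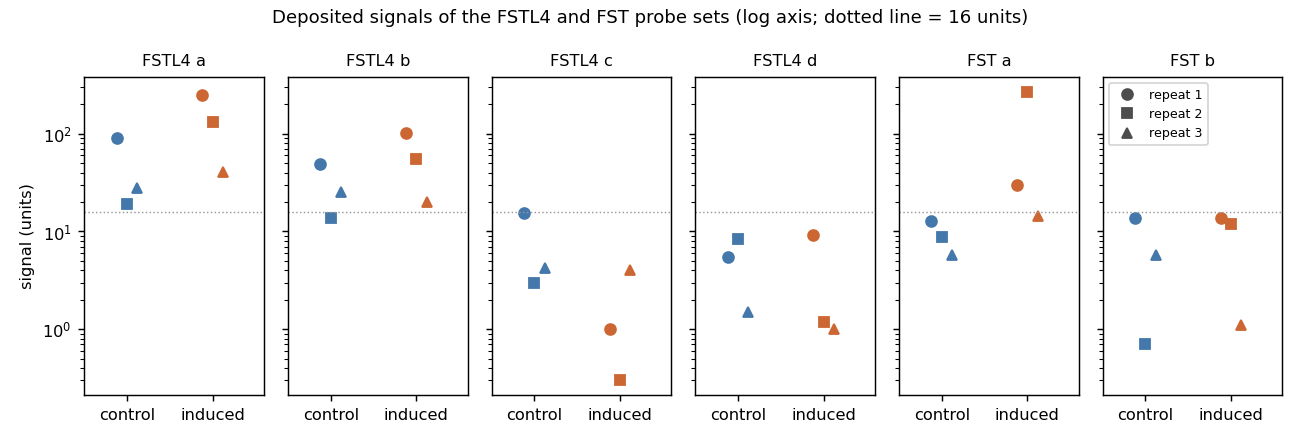
Deposited signals in units (vertical log axis) of the 4 FSTL4 probe sets and the 2 FST probe sets, a being the one with the highest mean, in the 3 control and 3 induced samples, with 1 symbol shape per repeat. FSTL4 a and b are higher in the induced samples of repeats 1 and 2, while FST a is high in induced sample 2 at 269.3 units, and FSTL4 c and d and FST b stay under the dotted line at 16 units.

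FST encodes follistatin, which binds activins and several BMPs. Its probe set with the highest mean, FST a, read 12.8, 8.8 and 5.8 units in the controls and 30.2, 269.3 and 14.4 units in the induced samples. The groups did not overlap even before normalization, but 4 of the 6 arrays were under 16 units, and the nearest values were 12.8 and 14.4 units. Induced sample 2 was far above the rest. After normalization the controls lay between 4.52 and 4.85, whereas the induced samples lay at 5.10, 8.38 and 5.26. Mean levels were 4.65 ± 0.17 and 6.25 ± 1.85 (SD, n = 3 each). They differed by 1.59 on the log2 scale (SE 0.70, 95% interval 0.04 to 3.15, limma adjusted p = 0.495). Without induced sample 2 the difference was 0.53 (SE 0.20, limma adjusted p = 0.841). With an added constant of 1 it was 2.41 and with 64 it was 0.94, and neither passed. The gene's other probe set read at most 13.9 units on any array. It too was highest in induced sample 2 after normalization, at 4.97 against at most 4.62 elsewhere, from 0.7 units in control sample 2 and 11.8 units in induced sample 2, but all of its signals were under 16 units.

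FSTL1 encodes a secreted follistatin-like glycoprotein that antagonizes BMP4 in the mouse lung. Its probe set with the highest mean, FSTL1 a, read 123.8, 140.9 and 187.7 units in the controls and 140.1, 126.9 and 153.3 units in the induced samples. The groups overlapped throughout. The log2 fold change was -0.03 (95% interval -0.96 to 0.90, limma adjusted p = 0.994). After normalization the samples differed more by repeat than by group. Both arrays of repeat 1 were then lowest, at 6.49 and 6.61, and the other 4 lay at 7.38 to 8.04. The deposited signals did not set repeat 1 apart, as induced sample 1 at 140.1 units read above induced sample 2 at 126.9 units. Within repeats 1 to 3 the induced sample differed from the control by 0.12, -0.37 and 0.17. The other tested FSTL1 probe set gave 0.08 (95% interval -0.34 to 0.50), but it was under 16 units on 4 of 6 arrays. The 2 below the filter read at most 14.7 units.

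Chordin and the proteins that act with it or resemble it made up the next group. CHRD encodes chordin, a BMP antagonist of the organizer. It read 8.3, 10.6 and 9.8 units in the controls and 42.1, 11.9 and 7.3 units in the induced samples, so that only induced sample 1 was above 16 units. The log2 fold change was 0.31 (SE 0.21, 95% interval -0.16 to 0.79, limma adjusted p = 0.723). The difference was 0.96 within repeat 1 and 0.00 and -0.02 within repeats 2 and 3, and in the 4 arrays of repeats 2 and 3 it was -0.010. CHRDL1 encodes chordin-like 1, a BMP antagonist also called neuralin. Its tested probe set is of a kind that can match several transcripts, and it read 6, 9.3 and 4.4 units in the controls and 19, 5.7 and 7.8 units in the induced samples. The log2 fold change was 0.18 (95% interval -0.23 to 0.59), and the gene's other probe set read at most 9.3 units.

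TWSG1 encodes twisted gastrulation, which binds both BMPs and chordin and can favour or oppose signalling. It read 282.5, 195.7 and 290.3 units in the controls and 318.4, 317.2 and 185.8 units in the induced samples. It was above 16 units on all 6 arrays, and the groups overlapped. The log2 fold change was 0.13 (95% interval -0.54 to 0.80, limma adjusted p = 0.95). Here too both arrays of repeat 1 were lowest after normalization, at 7.51 and 7.61 against 8.17 to 8.61 in the other 4. This order was absent from the deposited signals, where induced sample 1 was the highest of the 6 at 318.4 units. The differences within repeats 1 to 3 after normalization were 0.10, 0.44 and -0.15.

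BMPER, also known as crossveinless-2, is an extracellular regulator of BMPs that is best known from endothelium. It read 67.8, 10.5 and 34.2 units in the controls and 75.2, 38.2 and 26 units in the induced samples. After normalization the 3 induced samples were close together, at 5.84 to 5.96, and control sample 2 was low at 4.97 while the other controls lay at 5.76 and 5.84. The log2 fold change was 0.38 (SE 0.24, 95% interval -0.16 to 0.92, limma adjusted p = 0.698), and 0.10 without control sample 2. Endothelial genes were lower in the same induced samples, as given below.

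NOG encodes noggin and GREM1 encodes gremlin, both BMP-binding antagonists, and SMOC1 encodes a matricellular protein that inhibits BMP signalling in Xenopus. NOG read 12.9, 4.3 and 7.9 units in the controls and 7.2, 5.3 and 2.4 units in the induced samples. GREM1 read 1.9 to 10.9 units over the 6 arrays, and the 4 probe sets of SMOC1 read at most 12.7 units. These probe sets lay below the filter, and 46.9% to 63.7% of all probe sets of an array also lay under 16 units. The differences were -0.18 for NOG, -0.18 for GREM1 and -0.26 to 0.17 for SMOC1, with limma adjusted p of 0.813 to 0.988 when the filter was dropped. In the same arrays the genes of the node, prechordal mesoderm and notochord, tissues known for chordin and noggin expression, gave 4 tested of 7 listed, and 0 passed, with 2 higher and 2 lower means. Their summed signal, taken back from the normalized values to the linear scale as for the lists below, was 97.9 to 123 over the control arrays and 87.0 to 158 over the induced ones. FOXA2, which is also expressed in endoderm, read at most 104.6 units. TBXT read at most 73.2, in induced sample 2, GSC and NOTO at most 21.8 and 26.3, and SHH at most 14.6.

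**Figure D2:**
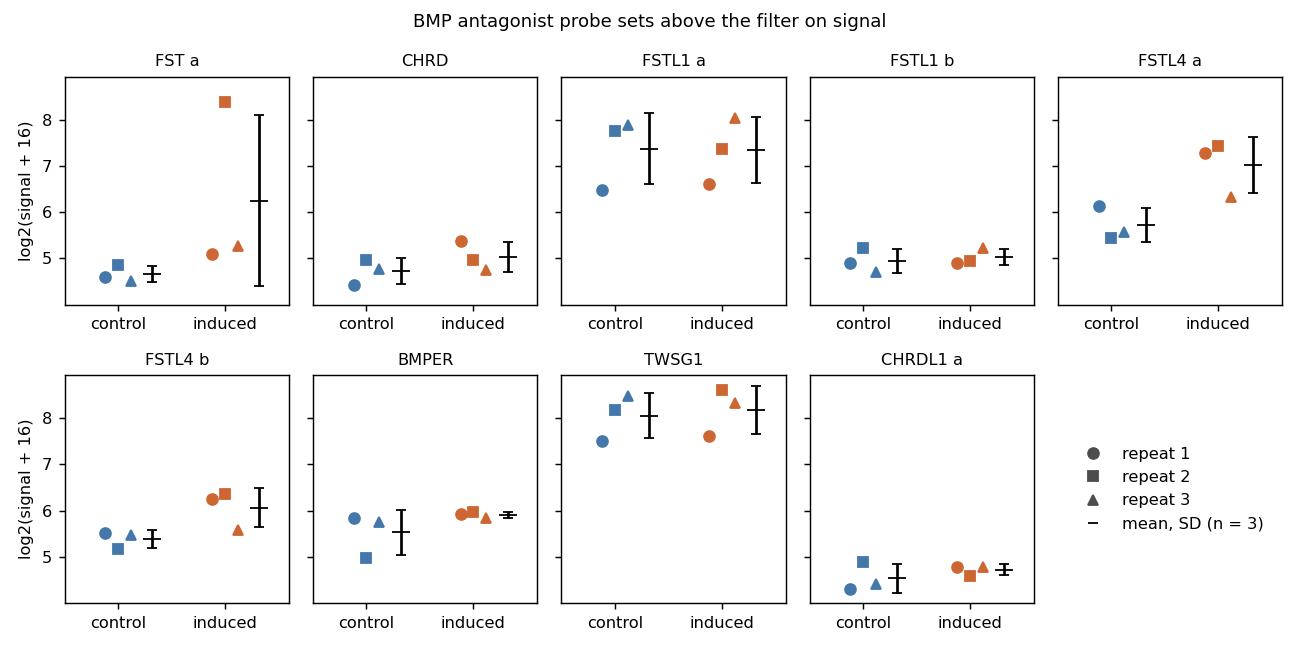
Level on the log2(signal + 16) scale after quantile normalization (vertical axis) of the 9 member probe sets above the filter, in control and induced samples, with 1 symbol shape per repeat and the mean with SD (n = 3) beside each group. FSTL4 a, FSTL4 b and FST a show no overlap of the groups, FST a owing its mean to induced sample 2, and in FSTL1 a and TWSG1 both repeat 1 arrays are lowest.

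**Figure D3:**
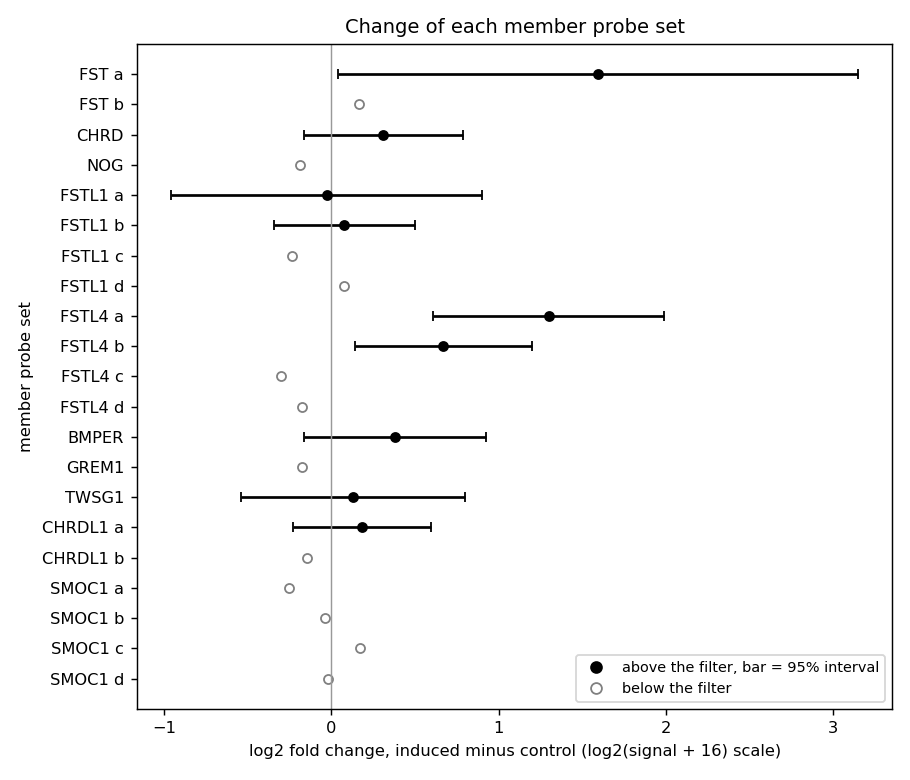
Log2 fold change, induced minus control (horizontal axis), of all 21 member probe sets, with 95% intervals for the 9 tested (filled) and no interval for the 12 below the filter (open). FSTL4 a at 1.30, FSTL4 b at 0.67 and FST a at 1.59 have unadjusted intervals above 0, and the others lie between -0.30 and 0.38.

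Markers of other tissues moved in the same arrays, and their part in the values of FSTL4, FST and BMPER was not tested. All 12 tested genes of the blood and endothelium list had lower means in the induced samples. TAL1, LMO2 and KDR passed, at -1.74, -2.18 and -1.84 (limma adjusted p = 0.0187, 0.0301 and 0.0187). The other tested probe set of each gene gave -0.17, -0.75 and -0.25. The summed signal of that list was 3242 to 3589 on the normalized linear scale over the control arrays and 639 to 1788 over the induced ones, and its mean level in induced samples 1 to 3 was -1.25, -1.74 and -0.87 relative to the control mean. Yolk sac endoderm and hypoblast genes had lower means in 10 of 10, with normalized summed signals of 2567 to 5613 and 905 to 1574, and 0 passed. Among them SOX17 and FOXA2 had only -0.08 and -0.02, with overlapping groups. AFP and RBP4, also listed, read at most 11.9 and 6.4 units and were not tested. For head and lateral mesoderm, the tissue of the graft, 4 of 8 tested genes had a higher mean, NKX2-5, a cardiac homeobox gene, rose by 1.90 (limma adjusted p = 0.0197), and normalized summed signals were 227 to 1385 and 805 to 1715. Others of that list that were bright on some arrays, FOXC2 (at most 1428 units) and PRRX1 (at most 953 units), had log2 fold changes of 1.69 and 0.69 with overlapping groups and did not pass (limma adjusted p = 0.579 and 0.78), and TWIST1 had -0.09. After normalization induced sample 2, the highest for FST and FSTL4, was the lowest of the 6 for the blood list. Induced sample 3, the lowest of the induced samples for FSTL4 but not for FST, was the nearest to the controls there. For the yolk sac list induced sample 2 was also the lowest, but induced sample 1 was the nearest to the controls. In the node, prechordal mesoderm and notochord list, of 4 tested genes, induced sample 2 was the highest of the 6. There TBXT read 73.2 units, GSC and NOTO 8.3 and 10.7 units, and FOXA2 37.7 units, its lowest signal. For the head and lateral mesoderm list induced samples 1 and 2 were the highest, at 6.65 and 6.60. Induced sample 3, at 6.19, lay below control samples 1 and 3, at 6.26 and 6.42, and above control sample 2, at 5.24. TBX1, also listed for head mesoderm, lay below the filter at no more than 8.7 units.

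The remaining genes of the pathway were counted by their probe set with the highest mean, beside 10118 genes, of which 0.188% passed over all probe sets, 11.6% had an unadjusted p under 0.05 and 16.6% had groups without overlap. None passed in any of these lists. Of 13 listed ligands 7 were tested, with 4 higher and 3 lower means and a median log2 fold change of 0.06, against 0.02 for all genes. BMP2 read 393 to 1135 units on the controls and 208 to 542 on the induced arrays, and after normalization the groups did not overlap (9.25 ± 0.16 against 8.36 ± 0.36, SD, n = 3 each), and BMP2 differed by -0.89 (SE 0.20, limma adjusted p = 0.158). BMP7 had -0.53. The 4 ligands with higher means were dimmer than BMP2 and BMP7. BMP6 (0.30), INHBB (0.15) and GDF5 (0.06) read at most 32.1, 21.5 and 14.6 units, and BMP4 (0.21) at most 78.7 units. BMP5, with a lower mean (-0.07), read at most 76.6 units. Of 12 receptors and co-receptors 8 were tested (6 higher, 2 lower, median 0.11). ACVR2B, a type II receptor for activins and BMPs, had 0.59 (SE 0.17, limma adjusted p = 0.27) without overlap. The co-receptor gene ENG had -0.33 and the type I receptor gene BMPR1B 0.27. Both were weak, as ENG read at most 22.2 units and BMPR1B at most 12.1 units. The tested genes BMPR1A, BMPR2 and RGMB were weak too, at no more than 26.1, 19.3 and 17.6 units. For the SMAD transducers 5 of 6 were tested (median 0.09), and SMAD3, SMAD2 and SMAD5 had -0.38, 0.29 and -0.27. The other tested SMAD5 probe set gave 0.05.

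Among the inhibitors inside the cell and in its membrane, 6 of 6 were tested (median 0.13), and SMAD6, TMEM53 and SMURF2 had -0.27, 0.28 and 0.26. BAMBI, a pseudoreceptor, had 0.06 (95% interval -0.19 to 0.31). Of 16 other secreted antagonists 5 were tested, with a median of -0.11. CRIM1, VWC2 (at most 27.5 units) and TSKU had -0.38, 0.31 and -0.11. Of the antagonists below the filter, CER1, CHRDL2 and SMOC2 read at most 6.3 units. The chordin protease gene TLL1 had 0.02. Direct BMP targets had values in both directions, with 7 higher and 6 lower means among 13 tested of 14 listed and a median of 0.01. Among them, 3 had an unadjusted p under 0.05 and a higher mean and 1 a lower mean. MSX1, a homeobox gene of ectoderm under BMP, had -0.97 (SE 0.26, limma adjusted p = 0.222). GATA3, an ectodermal transcription factor, had 0.89 (SE 0.26, limma adjusted p = 0.275), and ID1, an inhibitor of helix-loop-helix factors, had 0.60 (SE 0.18, limma adjusted p = 0.28). In ID1, GATA3 and MSX1 the groups did not overlap after normalization.

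**Figure D4:**
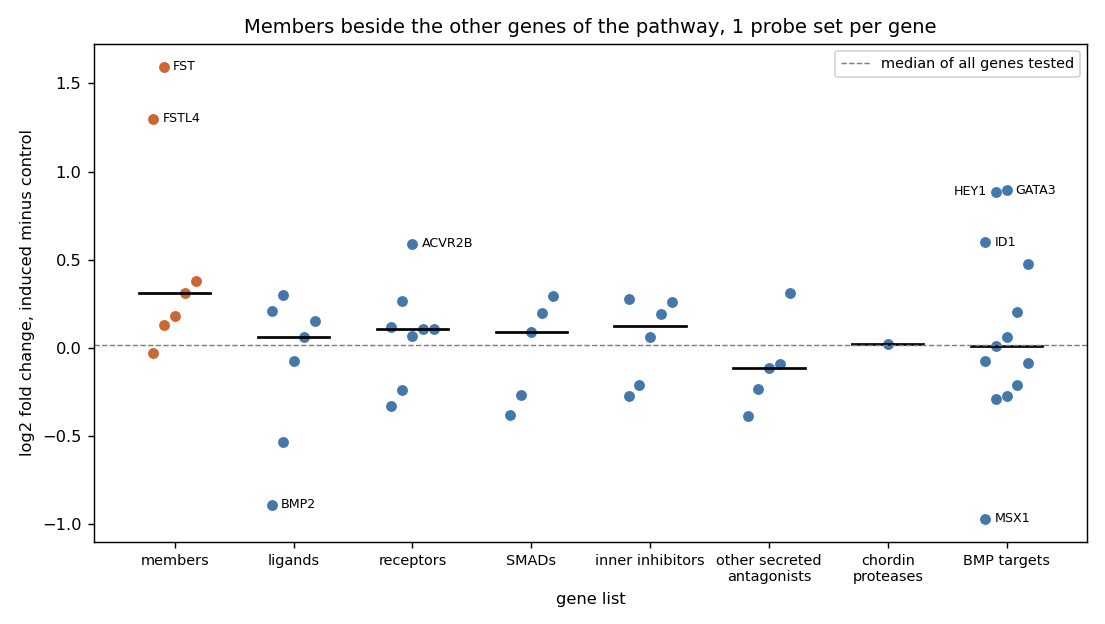
Log2 fold change, induced minus control (vertical axis), of 7 tested members and of the other pathway genes by list (horizontal axis), with 1 probe set per gene, bars at list medians and a dashed line at the median of all genes tested. FST and FSTL4 lie above all other genes shown, BMP2 and MSX1 are lowest at -0.89 and -0.97, and no gene shown passed the test over all probe sets.

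The genes whose pattern over the 6 arrays was most like that of FSTL4 were found among 9872 named genes by the root mean square difference of values centred on their own mean, which is 0 for identical patterns. They were ZNF462 at 0.12, DLX6 at 0.17, TP53I11 at 0.18, ETV5 at 0.21 and CRYBA4 at 0.21 log2 units. These 5 did not pass the test between the groups (limma adjusted p = 0.109 to 0.278). ZNF462, a zinc finger gene, lay at 8.65, 8.63 and 7.69 in induced samples 1 to 3, an order that its choice by likeness to FSTL4 favours. ETV5, a transcription factor downstream of FGF signalling, lay at 9.38, 9.28 and 8.82. For FST, the gene with the nearest pattern was ZIC1, a zinc finger gene of neural and neural border ectoderm, at 0.25, and it lay at 7.35 in induced sample 2 against 4.34 and 4.11 in samples 1 and 3. ACSL6 at 0.58, CYP26A1 at 0.60, CRHBP at 0.63 and CYP26C1 at 0.67 followed at a clear distance. CYP26A1 and CYP26C1 encode enzymes that break down retinoic acid. All 5 were highest in induced sample 2, as was FST, which follows from their choice by likeness to its pattern. They did not pass either (limma adjusted p = 0.39 to 0.661). None of the 10 BMP antagonist and modulator genes passed by limma over all probe sets.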

How the data were processed

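The authors deposited linear intensity values, 1 for each probe set on each array, and MAS5 is named per the submitters' processing notes. The sources used here give neither its version nor its scaling, and detection calls were not used. The table held 0 further columns of sample values. From it, log2(signal + 16) was computed and quantile normalized, probe sets under the 40th percentile of the mean were left out, and limma 3.58.1 in R 4.3.3 (lmFit, eBayes with trend, group as the only term, two-sided) was run with Benjamini-Hochberg adjustment over all probe sets and a threshold of 0.05. The fit was tested on simulated data with independent noise on each array. That simulation had no repeat effect and no difference in brightness between repeats, so it does not cover those features of the real arrays. With 3 arrays a group, the smallest exact permutation p is 0.1. The added 16 understates changes of weak genes, and quantile normalization removes shifts common to most genes.

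Names came from GEO's platform annotation, updated by Entrez number through RefSeq genes of GRCg7b, and 27166 of 37690 probe sets had 1 symbol. No coordinates or sequences are given.

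Named were all members, up to 3 genes per pathway list with the lowest p, and the 5 genes nearest in pattern to each of the 2 members with the lowest p. Others named (BAMBI, TLL1, further ligand and receptor genes, marker genes, genes not tested) were chosen after their values were seen. Members, lists and settings were chosen with earlier results of these data known. The deviations of same-numbered samples from their group means correlated at 0.553, -0.146 and 0.0695 for repeats 1 to 3. Those of differently numbered samples correlated at -0.449 to 0.402, the highest being control sample 2 with induced sample 3. These values cannot settle whether same-numbered samples are paired. Because equal numbers are not said to share hosts, the repeat number entered only as an alternative block. The alternatives were other constants, filters, normalizations, variance models, a block for the repeat number, 1 probe set per gene, and arrays left out.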

Additional observations from a re-analysis of the deposited data

How the results depend on the processing

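Among 20 alternative settings, 6 of which leave out 1 array, the count of probe sets past the threshold was 22 as reported. It was 12 without normalization between arrays, 5 in the 4 dimmer arrays without repeat 1, and 2 to 110 when 1 array was left out. The repeat number as a replicate block gave 26 probe sets after quantile normalization, with 0 of the members, and 587 without normalization, 2 of them members. Those 2 were FST (1.56, limma adjusted p = 8.4e-09) and FSTL4 (1.25, limma adjusted p = 0.001). In that setting limma replaced each probe set's own variance wholly by the trend, so that the spread of FST over the repeats did not enter. Of the member probe sets, 0 passed as reported by limma (3 at an unadjusted p under 0.05, of FSTL4 and FST), and 0 to 1 when 1 array was left out. The 1 was FSTL4 a without induced sample 3, the setting in which 110 probe sets of the whole array passed. The member probe sets without overlap numbered 3 as reported (14.4% of all probe sets tested), and they measure FSTL4 and FST. Their number was 1 with median centring (8.79%), 1 without normalization (3.23%) and 1 with the replicate block without normalization, FST each time. It was 3 to 5 when 1 array was left out, where the share over all probe sets was 20.5% to 28.6%. Of 174 member values under the alternatives, 8 changed sign, none of them called. Not all of the 174 could do so. Settings that change only the filter, the variance model, the block or the probe sets per gene leave each log2 fold change as it was. CHRD was -0.010 in the 4 dimmer arrays. When 1 array was left out, the 2 tested FSTL1 probe sets ran from -0.46 to 0.33 and from -0.041 to 0.23, and TWSG1 from -0.14 to 0.41; the cause was not tested. FST kept its direction in all 20 settings (0.53 to 2.41), as did FSTL4 by its main probe set (0.83 to 1.68). The lack of overlap fixes that direction where arrays are left out. Settings that change only the filter, variance model, block or probe sets per gene could not alter it either. Weak signal limits the 12 probe sets under 16 units. It also limits the tested probe sets of FST, CHRD and CHRDL1 and the weaker tested one of FSTL1. All of the latter were under 16 units on 4 or 5 of 6 arrays.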
